A study of Mus musculus with 12 samples.

Results

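The genes of adenosine metabolism and reception were followed in cultured mouse fibroblasts of the adventitia, the outer coat of the aorta. The list held 9 of the 54352 gene symbols counted, namely Entpd1, Nt5e, Ada, Adk, Pnp, Slc29a1, Adora1, Adora2a and Adora2b. It was selected on the values themselves, because Ada had the strongest rise with TGFβ when both aortic sites were pooled. All 12 cultures came from wild-type (WT) C57Bl/6 mice with a labelled age of 14 weeks, and the labels put all of them in batch 1. The 4 groups of 3 cultures each were descending control, descending TGFβ, ascending control and ascending TGFβ, where control received solute and TGFβ was given at 10 ng/mL for 48 h. The cells were primary cultures grown out of pieces of adventitia and passaged, and the ascending tissue included the aortic root. The study's methods give another age, and whether cultures with the same replicate number shared animals is not stated. The p-values therefore measure the spread between these cultures.

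Adenosine is made outside the cell from released ATP. CD39, encoded by Entpd1, trims ATP and ADP to AMP, and CD73, encoded by Nt5e, removes the last phosphate. Adenosine then signals through the G protein-coupled receptors A1, A2a and A2b (Adora1, Adora2a and Adora2b), is carried across the membrane by the equilibrative transporter ENT1 (Slc29a1), and is cleared by adenosine kinase (Adk), which returns it to AMP, or by adenosine deaminase (Ada), which turns it into inosine that purine nucleoside phosphorylase (Pnp) splits to hypoxanthine. In the vessel wall adenosine is known as a dilator acting on smooth muscle and as a brake on inflammation, largely through the A2a receptor.

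Library totals ran from 16250126 to 23892943 counts, and values are given as normalized CPM, a count relative to its library's total after scaling by edgeR's TMM factors. The floor was set at 3 counts, equal to 0.117 to 0.207 normalized CPM depending on the library, and covers counting error only. Descending control replicate 3 stood apart, with 13031 genes detected where the other libraries had 19337 to 20931, and with 11% of its counts on mitochondrial genes against 0.703 to 1.03%. Of 1027 genes with 100 to 200 counts in both other descending controls, 14.8% had 0 counts in it, against at most 0.195% in any of the other 9 libraries. Tests and folds that rest on this library are therefore given with and without it, while the values pooled over both sites include it. All 6 fibroblast markers were above the floor in each library, while Cd3e and Cd8a of the T cell list and Tie1 of the endothelial list had 0 counts throughout. Of the other T cell markers, Cd3g had 42 counts in descending control replicate 3 and 0 in the other 11 libraries, and Cd4 and Foxp3 had at most 4 in any. Tek of the endothelial list had 69 to 612 counts.

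The promoter windows of Ada and Adora2b are shown because Ada was higher and Adora2b lower with TGFβ in ascending fibroblasts while each window held 2 matches of the SMAD box CAGAC, the short sequence bound by the transcription factors downstream of TGFβ receptors. The Adora2b difference kept an adjusted p under 0.05 in 5 of the 12 alternative fits described below. Each window runs from 250 bases before to 50 after the annotated start and is written 5′ to 3′ along the gene, with CAGAC or its reverse complement GTCTG in capitals. The Ada window lies at chr2:163750190-163750489 on the minus strand and that of Adora2b at chr11:62248734-62249033 on the plus strand, in RefSeq's GRCm38.p6.

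Ada: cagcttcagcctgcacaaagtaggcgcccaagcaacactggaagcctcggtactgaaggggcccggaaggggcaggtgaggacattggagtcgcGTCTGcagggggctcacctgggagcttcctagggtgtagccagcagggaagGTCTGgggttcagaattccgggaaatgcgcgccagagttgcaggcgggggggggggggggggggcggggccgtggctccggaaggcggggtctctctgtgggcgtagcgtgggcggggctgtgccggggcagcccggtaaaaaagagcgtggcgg

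Adora2b: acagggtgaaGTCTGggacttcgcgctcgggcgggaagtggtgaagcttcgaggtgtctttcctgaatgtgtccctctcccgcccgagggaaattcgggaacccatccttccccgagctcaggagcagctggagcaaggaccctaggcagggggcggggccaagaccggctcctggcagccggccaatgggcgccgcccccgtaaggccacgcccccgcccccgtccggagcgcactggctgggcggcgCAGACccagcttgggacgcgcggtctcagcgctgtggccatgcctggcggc

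Of the 9 members, 8 matched a RefSeq promoter. The CAGAC matches of Ada start at -156 and -105, and those of Adora2b at -240 and -1. Nt5e also held 2 matches, at -69 and -32, and Slc29a1 held 2 or 3 in 4 of its 8 windows and 1 in another. Entpd1 held 1 in each of its 2 windows and Pnp 1, and the windows of Adk and Adora1 held none. Such matches are common, as 49.6% of the 32851 promoters of this length held CAGAC on either strand. The GC box GGGCGG was matched 2 times in Ada, at -44 and 6, 6 times in Adora2b and 4 times in each Adk window, against at least 1 match in 35.7% of all promoters. Neither Ada nor Adora2b held the AP-1 motif TGANTCA (7.81% of promoters), the hypoxia response core ACGTG (19.6%) or the cyclic AMP response element TGACGTCA (1.79%). A match describes letters in the window and is no evidence of binding.

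Ada (ENSMUSG00000017697.3), on the minus strand of GRCm38 at chr2:163726584-163750239, shares none of its exon sequence with another gene. Ascending controls held 9.43, 7.84 and 9.25 normalized CPM and ascending TGFβ cultures 145, 152 and 135. Descending controls held 9.61, 11 and 10.3, and descending TGFβ cultures 135, 141 and 133. Every control culture of both sites lay far below every TGFβ culture, and descending control replicate 3 lay between the other descending controls. The log2 fold change was 4.02 with a standard error (SE) of 0.07 in ascending, a 16.2-fold difference, and 3.72 with an SE of 0.13 in descending fibroblasts, a 13.1-fold difference (3.73, SE 0.08, without descending control replicate 3). Over both sites the fold change was 14.5. These differences chose the list, so they are given as a description with no test. In the pooled comparison Ada ranked 1 among rising genes by the F statistic, 1760 against 676 for Snx30 and 615 for Wisp1 just behind it, but 24 of 13747 by the size of the log2 fold change. In RNA from whole cultures, fewer cells of a type and less RNA per cell cannot be told apart. The smooth muscle markers, which myofibroblasts also express, summed to 1540 to 1650 in ascending controls and 5050 to 5150 normalized CPM with TGFβ. In descending cultures they summed to 2440 to 2520 and 7890 to 8320. Acta2 made up most of these sums, with 1424 to 1542 in ascending controls and 4895 to 4986 with TGFβ. Tagln, Cnn1 and Smtn were also higher with TGFβ at both sites. Des was lower at both sites, and Myh11 was lower in ascending cultures and overlapped in descending ones. The part of these markers in the rise of Ada was not tested.

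**Figure D1:**
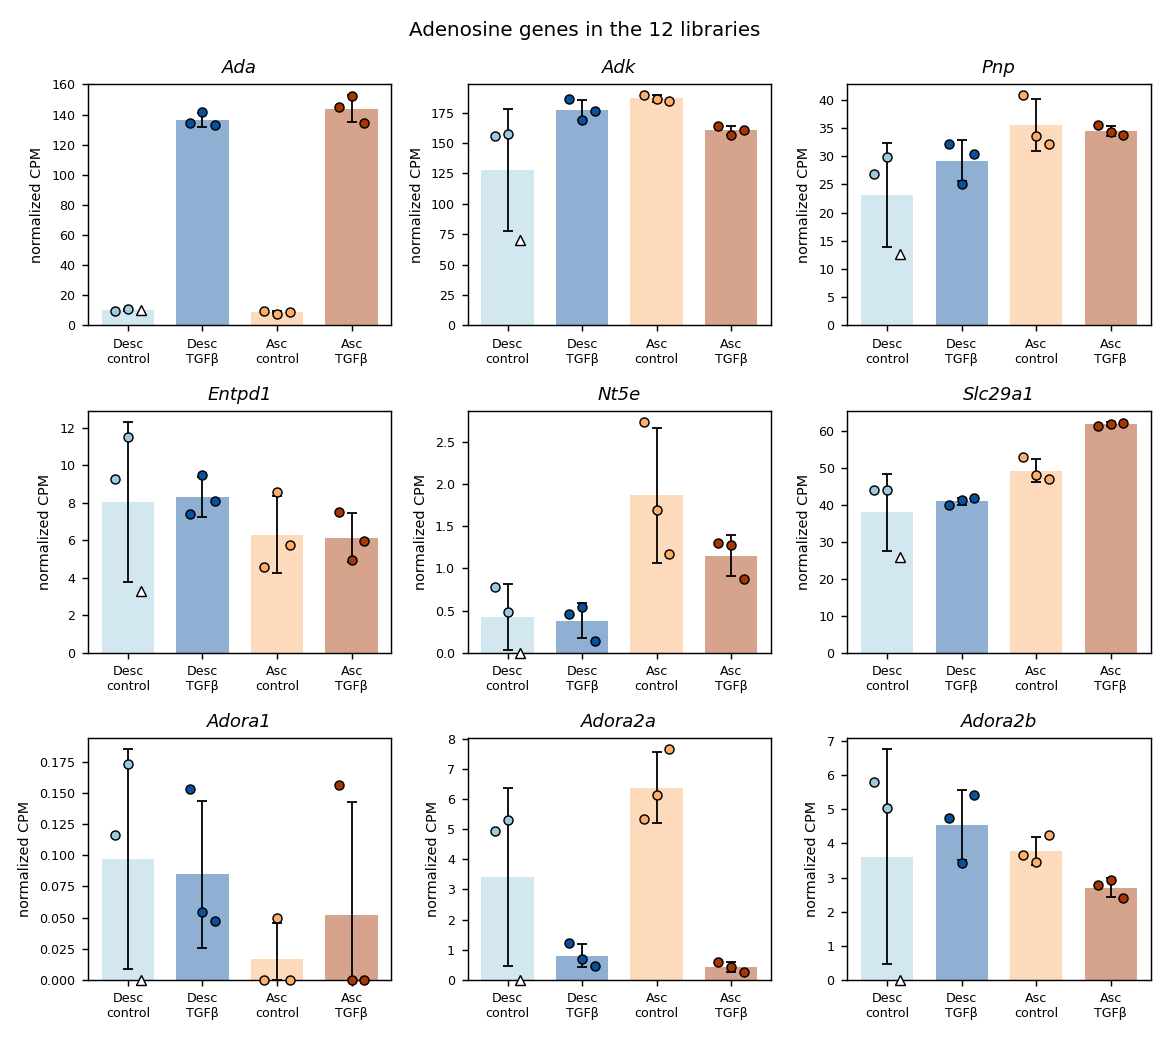
Normalized CPM (vertical axes, linear from 0) of the 9 adenosine genes in descending (Desc) and ascending (Asc) control and TGFβ cultures. Bars are means of 3 libraries, error bars 1 SD (drawn no lower than 0), points the libraries, and the open triangle is descending control replicate 3. Ada stands at 7.84 to 11 in controls and at 133 to 152 with TGFβ, and Adora2a stands at 4.94 to 7.64 in the controls other than the triangle and at 0.243 to 1.22 with TGFβ.

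Beyond Ada, the TGFβ response of the other 8 members was assessed by the two-sided quasi-likelihood F-test of edgeR, with Benjamini-Hochberg adjustment over all genes tested and a differentially expressed (DE) gene at an adjusted p under 0.05. Adora1 was left out by edgeR's filter on low counts in every comparison, so 7 members were tested. In ascending fibroblasts 4 of the 7 were DE genes, Slc29a1 higher and Adora2a, Adk and Adora2b lower, where 55.8% of the 13917 genes tested were. In descending fibroblasts 0 of the 7 were DE genes by edgeR, where 8.07% of all genes tested were. At an unadjusted p under 0.05 it was also 0, against 23.5% of all genes, and 0 by DESeq2, which called 2242 genes. Without descending control replicate 3 there were 3, Adk higher and Adora2a and Entpd1 lower, against 52.9% of all genes. The shares of members were thus near those of all genes in these comparisons, and the count is not a result about the list.

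The receptors held the most marked change after Ada. Adora2a (chr10:75316877-75334784, plus strand) encodes the A2a receptor, which couples to Gs and raises cyclic AMP. It held 5.34, 6.14 and 7.64 normalized CPM in ascending controls, from 123 to 157 counts, and 0.574, 0.426 and 0.243 in ascending TGFβ cultures, from 5 to 11 counts. The groups did not overlap, and Adora2a fell by 3.94 on the log2 scale (SE 0.28, n = 3 and 3), 15.3-fold, with an adjusted p of 2.47e-09 in edgeR. The 12 alternatives kept this call, with log2 fold changes from -4.22 to -3.67 and adjusted p-values from 2.7e-48 to 0.0264. Descending controls held 4.94, 5.29 and 0, and descending TGFβ cultures 1.22, 0.704 and 0.473, or 24, 13 and 10 counts. Replicates 1 and 2 of the controls lay above all TGFβ cultures and replicate 3 below them. With the 3 controls the log2 fold change was -2.10 with an SE of 1.39 and an edgeR adjusted p of 0.416. Without replicate 3 Adora2a fell by 2.67 (SE 0.27), 6.38-fold, with an adjusted p of 1.34e-09.

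Marker sums of other cells were also lower with TGFβ, except that of mesothelial cells in descending cultures. The 6 endothelial markers summed to 24.4 to 27.9 normalized CPM in ascending controls and 4.7 to 5.72 with TGFβ, and to 23.9 to 26.8 and 9.49 to 11.2 in descending cultures. Tek made up most of these sums, with 487 to 542 counts in ascending controls and 69 to 100 with TGFβ, while Cdh5 had at most 6 counts and Pecam1 at most 6 in any library. Kdr went the other way in descending cultures, with 13, 22 and 0 counts in controls and 24, 29 and 34 with TGFβ. The 6 macrophage markers summed to 53 to 343 in ascending controls and 29.3 to 41.4 with TGFβ, and to 27.5 to 48 and 14.7 to 26.9 in descending cultures. The 4 mesothelial markers summed to 33.5 to 44.2 in ascending controls and 19.6 to 26.5 with TGFβ, and to 6.89 to 13 and 12.2 to 13.9 in descending cultures. Their part in the fall of Adora2a was not tested.

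Adora2b (chr11:62248984-62266453, plus strand) encodes the A2b receptor, the low-affinity partner of A2a. Ascending controls held 3.65, 3.45 and 4.24 normalized CPM and ascending TGFβ cultures 2.77, 2.93 and 2.39. The groups did not overlap, and Adora2b fell by 0.49 (SE 0.19), 1.41-fold, with an edgeR adjusted p of 0.037. Of 12 alternatives 5 kept this call, and it was lost with DESeq2 (adjusted p = 0.122), without a filter on low counts (0.063), in the fit of all 12 libraries (0.827) and when ascending control replicate 1 (0.0563) or 3 (0.134) or ascending TGFβ replicate 1 (0.0606) or 3 (0.117) was left out. In descending fibroblasts the levels were 5.80, 5.03 and 0 in controls and 4.74, 3.41 and 5.43 with TGFβ, so that the groups overlapped. The log2 fold change was 0.31 (SE 1.21) with all controls and -0.25 without replicate 3, with a 95% interval from -0.63 to 0.13 and an adjusted p of 0.272.

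Adora1 (chr1:134199223-134235431, minus strand), which encodes the Gi-coupled A1 receptor, had 3, 4 and 0 counts in descending controls, 3, 1 and 1 in descending TGFβ, 0, 1 and 0 in ascending controls and 3, 0 and 0 in ascending TGFβ cultures. All libraries but 1 were at the floor or below it, and no fold change is given. Its exons share 17.4% of their 50-base sequences with Mybph on the opposite strand, which had at most 2 counts.

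**Figure D2:**
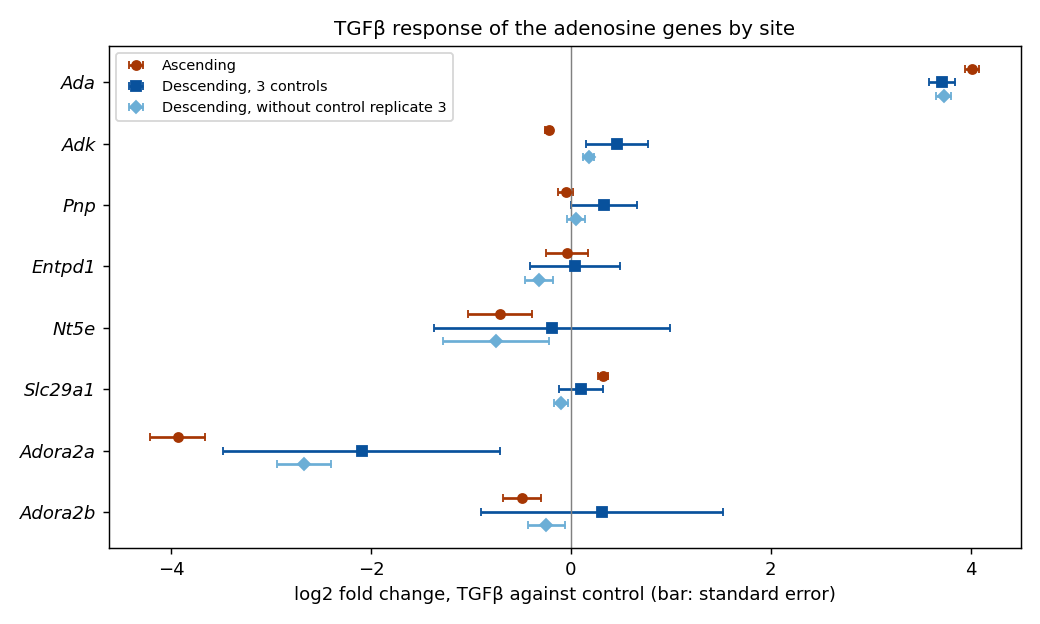
Log2 fold change between TGFβ and control (horizontal axis, error bars 1 SE) for the 8 adenosine genes with a fit, in ascending fibroblasts and in descending fibroblasts with and without control replicate 3. Ada lies at 4.02 and 3.72, Adora2a at -3.94 and at -2.10 or -2.67, and the other 6 genes lie between -0.75 and 0.46.

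Of the enzymes that make adenosine, Entpd1 (chr19:40612366-40741602, plus strand) did not differ with TGFβ beyond its spread in ascending fibroblasts. Controls held 4.56, 8.59 and 5.74 normalized CPM and TGFβ cultures 7.52, 4.96 and 5.94, and the groups overlapped (log2 fold change -0.04, 95% interval -0.48 to 0.41, edgeR adjusted p = 0.891). The highest control, replicate 2, was also the library with 343 normalized CPM of macrophage markers, against 53 to 58.3 in the other ascending controls, and held 5836 counts of Lyz2 against 870 to 894. Without it the log2 fold change was 0.25, with an adjusted p of 0.258. Descending controls held 9.30, 11.5 and 3.31, and descending TGFβ cultures 7.40, 9.48 and 8.08. The log2 fold change was 0.04 (adjusted p = 0.971) with all controls and -0.32 (SE 0.14, adjusted p = 0.0498) without replicate 3. On the same 11 libraries DESeq2 did not call it (adjusted p = 0.215), and the highest TGFβ culture still exceeded the lower of the remaining controls.

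Nt5e (chr9:88327197-88372092, plus strand) was scarce in all groups. Ascending controls had 63, 34 and 24 counts, 2.74, 1.70 and 1.17 normalized CPM, and ascending TGFβ cultures 25, 27 and 18 counts, 1.30, 1.28 and 0.876 normalized CPM. The groups overlapped, with a log2 fold change of -0.71 (SE 0.33, 95% interval -1.40 to -0.02) and an edgeR adjusted p of 0.0748, and the difference passed only when ascending control replicate 3 was left out (-0.96, adjusted p = 0.0211). Descending controls had 20, 11 and 0 counts and descending TGFβ cultures 9, 10 and 3, and the log2 fold change was -0.19 (SE 1.18) with all controls and -0.75 (SE 0.53, adjusted p = 0.244) without replicate 3.

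Adk (chr14:21052574-21448569, plus strand), the kinase that clears adenosine at low concentration, moved in opposite directions at the 2 sites. Ascending controls held 189, 186 and 184 normalized CPM and ascending TGFβ cultures 164, 156 and 161. Every ascending TGFβ culture was below every control, and Adk fell by 0.22 (SE 0.03), 1.17-fold, with an edgeR adjusted p of 3.06e-05. In descending fibroblasts controls held 156, 158 and 70.2 and TGFβ cultures 186, 169 and 176, so that every TGFβ culture was above every control. With all controls the log2 fold change was 0.46 (SE 0.31, adjusted p = 0.428), and without replicate 3 it was 0.18 (SE 0.05, adjusted p = 0.00553), 1.13-fold higher.

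Pnp (chr14:50931082-50965237, plus strand), the step after Ada, held 40.8, 33.6 and 32.2 normalized CPM in ascending controls and 35.6, 34.3 and 33.7 with TGFβ. The groups overlapped (log2 fold change -0.05, 95% interval -0.21 to 0.11, edgeR adjusted p = 0.582). Descending controls held 26.9, 29.8 and 12.7 and TGFβ cultures 32.1, 25.1 and 30.3, with a log2 fold change of 0.33 (adjusted p = 0.596), or 0.05 (95% interval -0.14 to 0.23, adjusted p = 0.68) without replicate 3. Pnp shares 22% of its 50-base exon sequences with Gm49342, which had at most 1 count.

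The transporter gene Slc29a1 (chr17:45585200-45599606, minus strand) held 52.8, 47.9 and 47.0 normalized CPM in ascending controls and 61.2, 61.9 and 62.2 with TGFβ. The groups did not overlap, and Slc29a1 rose by 0.32 (SE 0.05), 1.25-fold, with an edgeR adjusted p of 5.2e-05. Descending controls held 44.0, 43.9 and 25.9 and TGFβ cultures 39.9, 41.1 and 41.7. The log2 fold change was 0.10 (adjusted p = 0.823) with all controls and -0.10 (95% interval -0.24 to 0.04, adjusted p = 0.218) without replicate 3, where both remaining controls lay above all TGFβ cultures. Slc29a1 shares 3.93% of its exon sequence with Gm17080 on the opposite strand, which had at most 9 counts.

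In one fit of all 12 libraries, which shares 1 estimate of the spread that includes descending control replicate 3, the ascending calls fell from 4 to 1 of 7, and Adora2a was the one kept. Over all genes the calls fell from 7767 to 2338. Adk then had an adjusted p of 0.67 and Slc29a1 of 0.255.

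The order of the genes by level, as normalized CPM per kilobase of exon, is a description. In ascending controls it ran from Adk (21.9 ± 0.304, SD, n = 3) over Slc29a1 (12.3 ± 0.779), Pnp (8.93 ± 1.16) and Ada (4.42 ± 0.434) to Adora2a (2.08 ± 0.381), Adora2b (2.05 ± 0.222), Entpd1 (1.13 ± 0.371) and Nt5e (0.217 ± 0.0928). The ranges of Adora2a and Adora2b overlapped, and the other neighbours were apart. In ascending TGFβ cultures Ada stood first with 71.9 ± 4.46, ahead of Adk (18.8 ± 0.44), Slc29a1 (15.4 ± 0.123) and Pnp (8.67 ± 0.238), while Adora2a (0.135 ± 0.0541) and Nt5e (0.134 ± 0.0279) stood last above Adora1 and overlapped. Descending cultures gave the same first 4 genes in the same order, with Ada at 5.15 ± 0.351 in controls, and at 68.1 ± 2.25 with TGFβ. The control range of Ada, 4.8 to 5.5, lay within that of Pnp with replicate 3 and below that of Pnp, 6.76 to 7.5, without it. The ratio of Ada to Adk per kilobase, the deaminase against the kinase, was 0.212, 0.179 and 0.214 in ascending controls and 3.77, 4.15 and 3.56 with TGFβ. It was 0.262, 0.297 and 0.628 in descending controls, the last in replicate 3, and 3.08, 3.56 and 3.22 with TGFβ. The values above 1 with TGFβ rest on the division by exon length, 2.002 kb for Ada and 8.526 kb for Adk. As a ratio of read counts, Ada to Adk was 0.0421 to 0.147 in the 6 control and 0.724 to 0.974 in the 6 TGFβ cultures.

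**Figure D3:**
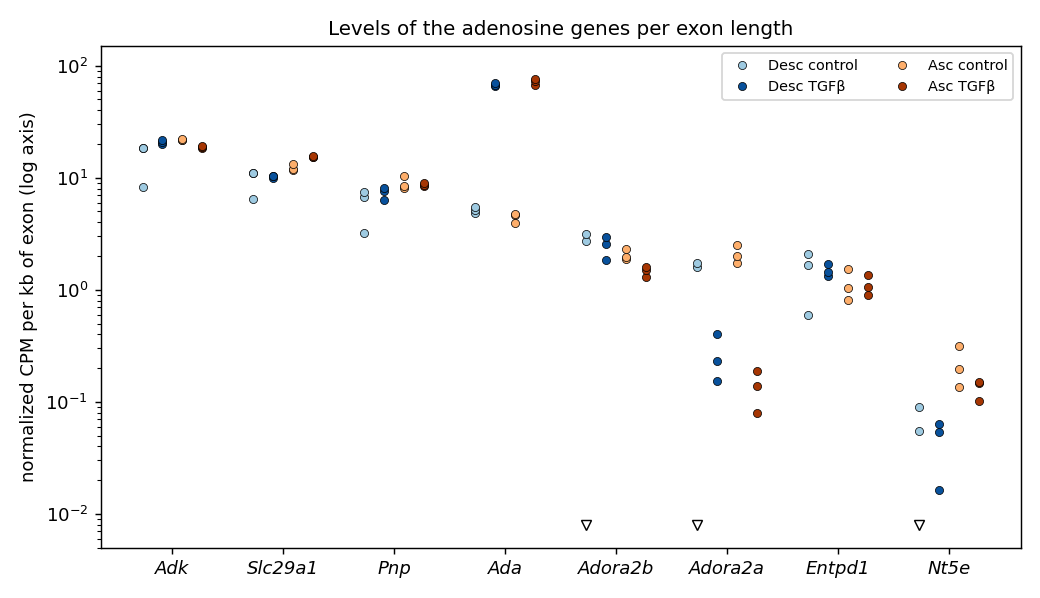
Normalized CPM per kilobase of exon (vertical log axis) of 8 adenosine genes, 1 point per library, ordered along the horizontal axis by level. Open triangles at the lower edge mark a library with 0 counts, descending control replicate 3 in each case. Ada moves from 3.92 to 5.5 in controls to 66.4 to 76.1 with TGFβ, above Adk, and Adora2a has its lowest points above 0 with TGFβ.

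Ascending and descending fibroblasts were then compared within each treatment, a contrast that did not choose the list. Within control 0 of 8 members were DE genes by edgeR, where 2.65% of all genes tested were. None had an unadjusted p under 0.05, against 12.8% of all genes, and DESeq2 called 0 of 8 members and 1034 genes. Without descending control replicate 3 there were 6 of 8, where 31.6% of all genes were. Ada itself held 7.84 to 9.43 normalized CPM in ascending and 9.61 to 11 in descending controls, so the groups did not overlap, with a log2 difference of -0.22 (adjusted p = 0.585), or -0.21 (95% interval -0.49 to 0.08, adjusted p = 0.269) without replicate 3. Higher in ascending controls without that replicate were Nt5e by 1.58 (SE 0.42, adjusted p = 0.0107), Pnp by 0.34 (SE 0.09, adjusted p = 0.0124), Adk by 0.26 (SE 0.04, adjusted p = 0.000292) and Slc29a1 by 0.18 (SE 0.06, adjusted p = 0.047). Entpd1 was lower, with a log2 difference of -0.72 (SE 0.21, adjusted p = 0.0184), and so was Adora2b, with -0.51 (SE 0.18, adjusted p = 0.0437). With all controls these differences were 2.10 for Nt5e, 0.62 for Pnp, 0.55 for Adk, 0.38 for Slc29a1, -0.35 for Entpd1 and 0.06 for Adora2b, with adjusted p-values from 0.485 to 0.982, so that the direction of Adora2b turned. The calls of Slc29a1 and Adora2b rest on the edgeR fit without replicate 3. DESeq2 on the same 11 libraries called the other 4 but gave them adjusted p-values of 0.154 and 0.177, and voom with sample weights gave 0.07 and 0.132. Marker sums also differed between these controls, for macrophages 53 to 343 in ascending against 40.7 and 48 in descending cultures. With replicate 3 included, they were 33.5 to 44.2 against 6.89 to 13 for mesothelial cells and 1540 to 1650 against 2440 to 2520 for smooth muscle. Most of the ascending mesothelial sum was Upk3b, with 29.0 to 37.1 normalized CPM against 0 to 1.60 in descending controls. Krt19 of the same list went the other way, with 3.41 to 4.17 in ascending and 6.89 to 11.8 in descending controls. Most of the smooth muscle sums was Acta2, and Des of that list went the other way. The part of these markers in the site differences within control was not tested.

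Within TGFβ, a comparison of 6 libraries without the one that stood apart, 6 of 8 members were DE genes, where 36.3% of all genes tested were. Slc29a1 was 1.51-fold higher in ascending cultures, with a log2 difference of 0.60 (SE 0.05, edgeR adjusted p = 1.21e-10) and 61.2 to 62.2 normalized CPM against 39.9 to 41.7. Nt5e was 3.06-fold higher (log2 difference 1.61, SE 0.42, adjusted p = 0.0032), with 18 to 27 counts against 3 to 10, and Pnp 1.18-fold higher (0.24, SE 0.07, adjusted p = 0.0114). Adora2b was 1.69-fold lower (-0.75, SE 0.20, adjusted p = 0.0028), Entpd1 1.36-fold lower (-0.44, SE 0.15, adjusted p = 0.0188) and Adk 1.1-fold lower (-0.14, SE 0.04, adjusted p = 0.00937). The Nt5e, Slc29a1, Pnp and Adora2b groups did not overlap, nor did those of Adk, whereas Entpd1 overlapped by 1 culture of each site. The share of all genes without overlap was not determined, so this is a description of the values only. In the fit of all 12 libraries, where the calls over all genes fell from 4963 to 1106, 0 of 8 members kept a call. With DESeq2 Entpd1 (adjusted p = 0.0757) and Pnp (0.0512) lost their call. Entpd1 also lost it without ascending TGFβ replicate 2 (0.139) or 3 (0.0586) or descending TGFβ replicate 2 (0.104), Pnp without descending TGFβ replicate 2 (0.115) or ascending TGFβ replicate 1 (0.0519), and Adk without descending TGFβ replicate 1 (0.064) or ascending TGFβ replicate 2 (0.062). Ada (0.08, 95% interval -0.01 to 0.17, adjusted p = 0.173) and Adora2a (-0.94, 95% interval -1.87 to -0.01, adjusted p = 0.112) were not DE genes. Macrophage markers summed to 29.3 to 41.4 in ascending and 14.7 to 26.9 in descending TGFβ cultures, and mesothelial markers to 19.6 to 26.5 and 12.2 to 13.9. In the mesothelial list Upk3b was higher in ascending cultures (14.7 to 22.8 against 0.612 to 1.08) and Krt19 lower (3.40 to 3.85 against 11.1 to 13.3). Smooth muscle markers summed to 5050 to 5150 in ascending and 7890 to 8320 in descending TGFβ cultures, and endothelial markers to 4.7 to 5.72 and 9.49 to 11.2. The part of these markers in the site differences was not tested.

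Whether the TGFβ response differed between the sites was tested as the interaction of site and treatment. By edgeR 0 of 8 members were DE genes, where 0.806% of all genes tested were, and DESeq2 called 0 of 8 members and 419 genes. Ada was the 1 member with an unadjusted p under 0.05 (0.0496, adjusted p = 0.499), against 10% of all genes. Its response was 0.30 larger in ascending fibroblasts on the log2 scale (SE 0.14), and 0.29 without descending control replicate 3 (adjusted p = 0.102). Without that replicate 2 of 8 members had a response that differed, where 13.5% of all genes did. They were Adk, with a log2 interaction of -0.40 (SE 0.06, adjusted p = 3.35e-05), and Slc29a1, with 0.43 (SE 0.08, adjusted p = 0.000501). With all 12 libraries these values were -0.68 (adjusted p = 0.53) and 0.22 (adjusted p = 0.708). Adora2a had -1.82 (SE 1.38, adjusted p = 0.619) and, without replicate 3, -1.26 (SE 0.46, 95% interval -2.21 to -0.32, adjusted p = 0.0712), so that its deeper fall in ascending fibroblasts did not pass the test.

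The wider pathway was described with 63 further genes of nucleotide breakdown, salvage, transport, release and reception. In ascending fibroblasts 42 of them were tested and 28 were DE genes with TGFβ, 15 higher and 13 lower, where 55.8% of all genes tested were, with a median log2 fold change of 0.02 against -0.00443 over all genes. In descending fibroblasts 8 of 42 were DE genes, 3 higher and 5 lower, against 8.07% of all genes. Without control replicate 3 it was 23 of 44, 11 higher and 12 lower, against 52.9%.

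The 3 pathway genes that fell at both sites with the smallest adjusted p in descending fibroblasts were Gda, Xdh and Ampd3. Gda, guanine deaminase, which turns guanine into xanthine, held 91.6, 91.7 and 89.5 normalized CPM in ascending controls and 9.19, 7 and 9.15 with TGFβ, a 10.8-fold difference (log2 fold change -3.44, SE 0.07, edgeR adjusted p = 5.65e-16). Descending cultures held 18.7, 19.2 and 20.3 in controls and 2.19, 1.90 and 1.89 with TGFβ, a 9.76-fold difference (adjusted p = 0.000946), or 9.46-fold (7.31e-18) without control replicate 3. Xdh, xanthine dehydrogenase, which carries hypoxanthine and xanthine to uric acid, held 85.6, 93.0 and 88.9 in ascending controls and 17.1, 17.3 and 14.5 with TGFβ, 5.49-fold lower (log2 fold change -2.46, SE 0.06, adjusted p = 7.51e-15). In descending cultures it went from 81.9, 78.4 and 58.3 to 19.4, 18.1 and 16.8, 4.04-fold lower (adjusted p = 0.00279), or 4.42-fold (8.33e-21) without that replicate. Ampd3, an AMP deaminase, fell 1.75-fold in ascending (adjusted p = 4.07e-08) and 2.16-fold in descending fibroblasts (adjusted p = 0.01), or 2.1-fold (6.57e-10) without it. The descending call of Ampd3 was lost without control replicate 2 (0.0529) or TGFβ replicate 1 (0.095), 2 (0.0919) or 3 (0.0791), while those of Gda and Xdh held under all 13 alternatives. None of the control and TGFβ groups of these 3 genes overlapped, descending control replicate 3 included. This adds no support, since small adjusted p-values chose these genes. Xdh shares 9.60% of its exon sequence with Ppp2r5a and Ampd3 5.28% with Rnf141. Of the 10 salvage and breakdown genes tested in ascending fibroblasts 3 rose, Hprt, Aprt and Adsl, and 4 fell, Pnp2, Xdh, Gda and Adssl1, where 55.8% of all genes changed. In descending fibroblasts Xdh and Gda fell and no other passed with all controls, where 8.07% of all genes changed. Without control replicate 3, 5 of 10 passed, Aprt and Adsl higher and Xdh, Gda and Dck lower, where 52.9% of all genes changed.

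**Figure D4:**
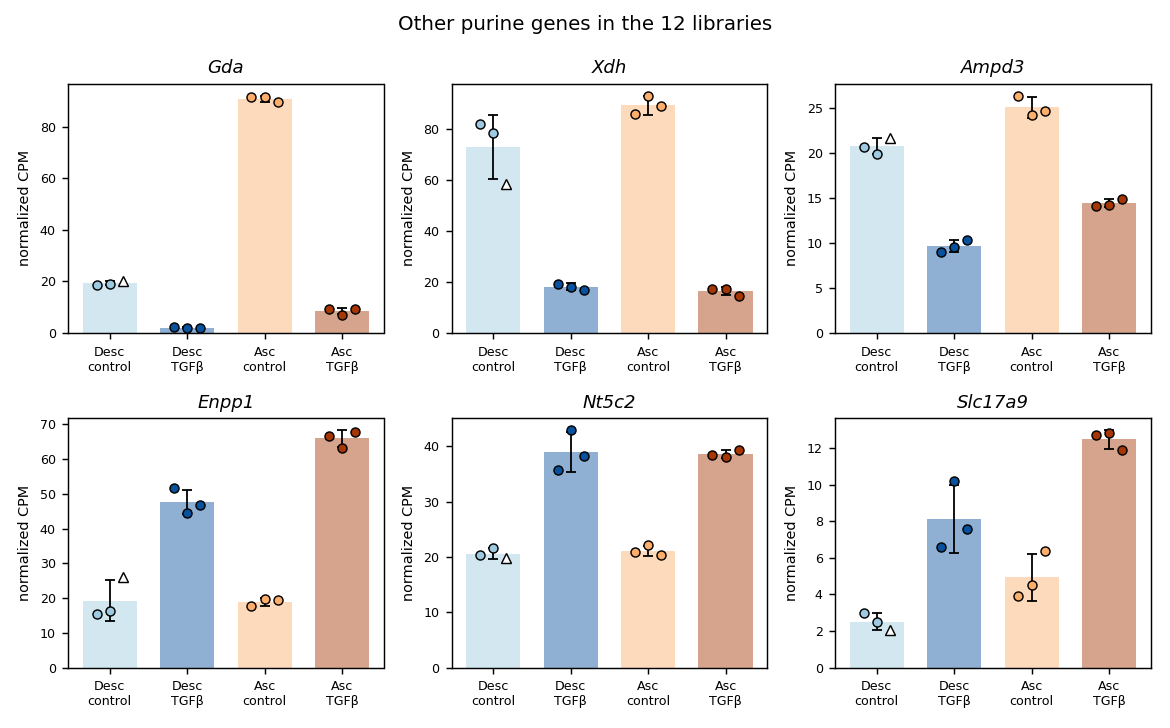
Normalized CPM (vertical axes, linear from 0) of 6 further purine genes by group, with bars for means of 3 libraries, error bars of 1 SD, points for libraries and the open triangle for descending control replicate 3. Gda, Xdh and Ampd3 are lower and Enpp1, Nt5c2 and Slc17a9 higher with TGFβ at both sites, and Gda in ascending controls (89.5 to 91.7) lies above descending controls (18.7 to 20.3).

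The 3 pathway genes that rose in descending fibroblasts with all controls also rose in ascending ones, and each came from a different list. Enpp1, an ecto-enzyme that splits ATP into AMP and pyrophosphate, held 17.6, 19.8 and 19.4 normalized CPM in ascending controls and 66.6, 63.3 and 67.8 with TGFβ, 3.47-fold higher (edgeR adjusted p = 9.71e-14). Descending cultures went from 15.5, 16.2 and 26.0 to 51.5, 44.6 and 46.9, 2.47-fold higher (adjusted p = 0.0276), or 3.02-fold (4.27e-16) without control replicate 3. Slc17a9, which encodes VNUT, the transporter that loads ATP into vesicles, rose 2.52-fold in ascending (adjusted p = 1.09e-06) and 3.20-fold in descending fibroblasts (adjusted p = 0.0214), or 2.95-fold (5.56e-08) without that replicate. Nt5c2, a cytosolic nucleotidase, rose 1.82-fold (adjusted p = 1.27e-09) and 1.88-fold (adjusted p = 0.0131), or 1.86-fold (2.72e-10) without it. The groups of these 3 genes did not overlap at either site, which adds no support since small adjusted p-values chose these genes. Their descending calls were each lost when any 1 library other than control replicate 3 was left out, with adjusted p-values from 0.0866 to 0.145 for Enpp1, 0.0621 to 0.136 for Slc17a9 and 0.0606 to 0.1 for Nt5c2. Of the ecto-enzymes tested in ascending fibroblasts, Enpp1 rose and Entpd2 fell, of the release genes Slc17a9 and Ank rose and Panx1 fell, and of 7 P2 nucleotide receptors P2ry6 rose and P2rx3, P2ry1 and P2ry2 fell, again where 55.8% of all genes changed. No other nucleoside transporter of the 3 tested was a DE gene at either site.

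**Figure D5:**
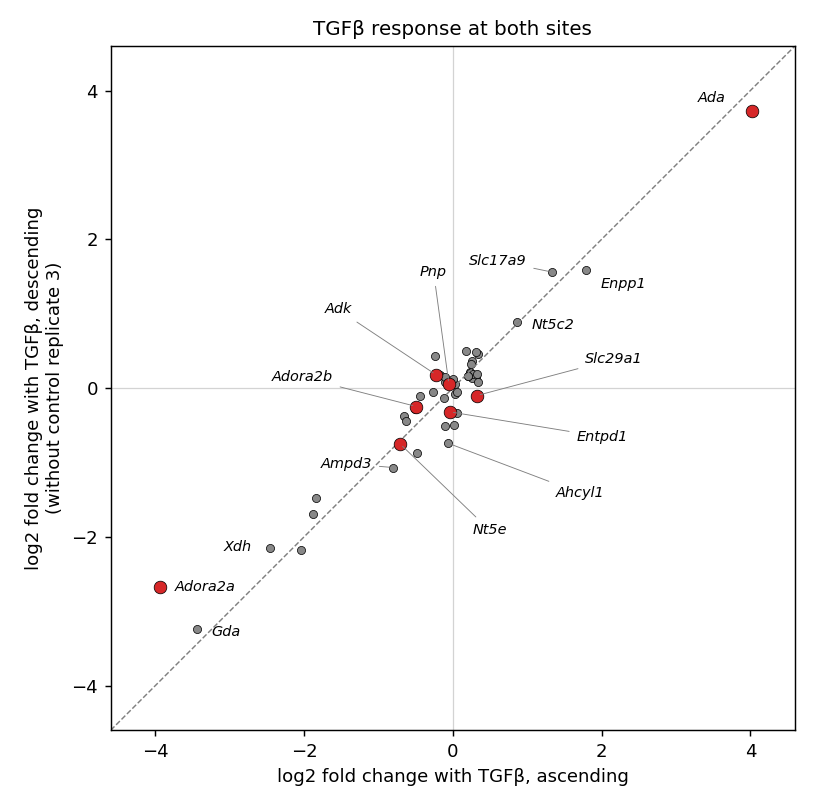
Log2 fold change with TGFβ in ascending (horizontal axis) and in descending fibroblasts without control replicate 3 (vertical axis), for the adenosine genes (large red points) and the pathway genes tested in both (small grey points). The dashed line marks equal change. Ada lies at 4.02 and 3.73, Adora2a at -3.94 and -2.67 and Gda at -3.44 and -3.24, and most other genes lie near the origin.

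Between sites, 2 of 42 pathway genes were DE genes within control, where 2.65% of all genes were, Gda and the mitochondrial adenylate kinase gene Ak4, both higher in ascending fibroblasts. Gda differed by 2.23 on the log2 scale (SE 0.11, edgeR adjusted p = 0.00155) and Ak4 by 1.13 (SE 0.14, adjusted p = 0.0151). Without descending control replicate 3 they differed by 2.28 (5.01e-12) and 1.12 (5.49e-07), and the number called was 25 of 43, against 31.6% of all genes. The Ak4 call was lost when either other descending control or any ascending control was left out, with adjusted p-values from 0.0813 to 0.15. With the replicate number as a block in edgeR, which called 0 of all genes, Gda (0.072) and Ak4 (0.192) both lost their call. Within TGFβ 22 of 40 were DE genes, 11 in each direction, against 36.3%. There Gda (2.08, adjusted p = 4.78e-11), P2rx7, an ATP-gated channel (1.01, adjusted p = 1.04e-07), and Enpp1 (0.47, adjusted p = 5.85e-08) were higher in ascending fibroblasts, and Ak5, a cytosolic adenylate kinase (-1.04, adjusted p = 1.67e-13), P2ry2, a receptor for ATP and UTP (-0.84, adjusted p = 2.78e-09), and Ank, a transporter for pyrophosphate and ATP (-0.26, adjusted p = 0.00014), were lower. In the fit of all 12 libraries Enpp1 (0.167) and Ank (0.159) lost their call. In the interaction 1 of 43 pathway genes was a DE gene, Ahcyl1, against 0.806% of all genes, and without descending control replicate 3 it was 7 of 44, against 13.5%.

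The genes whose pattern was most like that of Ada were found by the root mean square difference from Ada over the 12 libraries, on log2 CPM centred per gene. They were Cthrc1 (0.312), Wisp1 (0.319), Ptgs2 (0.33), Csdc2 (0.375) and Akap5 (0.406), against a median of 1.98 over 14637 genes. Cthrc1 averaged 8.88 normalized CPM in descending and 8.15 in ascending controls and 139 and 105 with TGFβ, and Ptgs2, which encodes cyclooxygenase 2, 26.2 and 14.0 in controls and 228 and 274 with TGFβ. Without descending control replicate 3 the first was Ptgs2 (0.165), and Notch4 (0.3) took the place of Akap5. The likeness is a description, as the points share the libraries and the TGFβ contrast that chose Ada.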

How the data were processed

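Read counts per gene symbol were deposited by the authors for 12 libraries, with no normalization. The submitters' processing notes name FastQC, STAR, featureCounts and DESeq2 and the build mm10, and their versions are not given in the sources used here. Strand setting and the handling of reads on overlapping genes were not given either. The analysis ran in R 4.3.3 and used edgeR 4.0.16 (TMM, filterByExpr at its default minimum count of 10 and total of 15, glmQLFit and glmQLFTest), with limma 3.58.1 and DESeq2 1.42.0 as alternatives, and plotted with matplotlib 3.10.9 in Python 3.11.15. Each comparison was fitted on its own libraries, across all genes, with Benjamini-Hochberg adjustment over the genes tested and a threshold of 0.05. A standard error is the size of the log2 fold change over the square root of F. Intervals are 95%. Likeness used log2 CPM with a prior count of 2. Annotation was GENCODE vM21 (GRCm38), and shared sequence is the share of 50-base exon sequences found in another gene's exons.

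Members and gene lists were chosen with earlier results of these data known. All members were named, and of the pathway lists up to 3 genes per direction and comparison with the smallest adjusted p. Other pathway genes are named as members of a count, after their values were seen. Ada was not tested for TGFβ, nor any member in the pooled contrast. As alternatives, the Wald test of DESeq2 was run, its size factors were used in edgeR, the filter on low counts was dropped, and further fits had the replicate number as a block, limma voom with sample weights, all 12 libraries together, each library left out or, chosen after seeing the data, DESeq2 without descending control replicate 3. The fits were tested on simulated data. All pairs of replicates differed beyond counting noise, so each library was counted as 1 sample.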

Additional observations from a re-analysis of the deposited data

Results flagged for a closer look

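Adk and Slc29a1 had responses to TGFβ that differed between the sites in the test of the difference itself, without descending control replicate 3. The log2 interaction was -0.397 for Adk and 0.427 for Slc29a1, with edgeR adjusted p-values of 3.35e-05 and 0.000501. For Adk every ascending TGFβ culture lay below every ascending control, and every descending TGFβ culture above every descending control. Descending control replicate 3 was the lowest of these, with 70.2 normalized CPM against 156 and 158. With all 12 libraries the interaction was -0.685 with an edgeR adjusted p of 0.53 (from 3.52e-09 to 0.803 over 18 alternatives, 3 of them under 0.05). Ak4, an adenylate kinase gene, showed the same kind of split, with 19.2 to 20.7 normalized CPM in ascending controls and 15.6 to 19.1 with TGFβ, 8.89 to 9.19 in descending controls and 12.0 to 12.9 with TGFβ, an interaction of -0.672 and an edgeR adjusted p of 0.0989 (0.00132 without descending control replicate 3). With all 12 libraries DESeq2 (adjusted p = 0.00955) and voom with sample weights (0.00267) called it.

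Ahcyl1, a relative of S-adenosylhomocysteine hydrolase, was the pathway gene that passed the interaction test with all 12 libraries (0.766, SE 0.12, edgeR adjusted p = 0.0182). It averaged 749 ± 80.8 normalized CPM (SD, n = 3) in descending controls and 420 ± 18.1 with TGFβ, and 523 ± 19.4 and 500 ± 10.1 in ascending cultures. Leaving out any 1 of the 9 libraries other than the descending controls raised the adjusted p to between 0.0631 and 0.0778, and leaving out descending control replicate 3 gave 0.671 with an adjusted p of 8.39e-09.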

How the results depend on the processing

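Within TGFβ and within ascending fibroblasts, the number of members and of genes called stayed within 1.5 times of the value reported under every alternative except the fit of all 12 libraries, which gave 1 member and 2338 genes for TGFβ in ascending fibroblasts and 0 members and 1106 genes for site within TGFβ, instead of 7767 and 4963 genes. Comparisons with descending control replicate 3 moved more. For TGFβ in descending fibroblasts, 1115 genes became 2242 with DESeq2, 95 with the replicate block, 7335 with voom weights, 3570 with 12 libraries and 6169 with DESeq2 on 11 libraries, with 3 members for voom and 2 for DESeq2 on 11 libraries, and leaving out 1 library gave 213 to 7576 genes and 0 to 3 members. For site within control, 374 genes became 1034, 0, 4392, 1545 and 3537 in the same order, with 4 members for voom and 4 for DESeq2 on 11 libraries, and leaving out 1 library gave 33 to 4631 genes and 0 to 6 members. For the interaction, 118 genes became 419 with DESeq2, 56 without a filter, 50 with the replicate block, 1979 with voom and 1732 with DESeq2 on 11 libraries, with 2 members in each of the voom and 11-library fits, and leaving out 1 library gave 25 to 2022 genes and 0 to 2 members. The upper ends are those without descending control replicate 3. For other settings the cause was not tested.

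Deviations of same-numbered cultures had correlations near 0 (r from -0.026 to 0.0655), against -0.0723 to 0.0371 for different numbers. Between the sites all same-numbered values were above 0. A correlation over all genes cannot decide whether these cultures shared animals. The replicate block left the number of members called at 4, 0, 0, 6 and 0 in the 5 comparisons, in the order TGFβ in ascending, TGFβ in descending, site within control, site within TGFβ and interaction. The block ended the descending TGFβ calls of Enpp1 (0.112), Nt5c2 (0.108), Slc17a9 (0.141), Ampd3 (0.104) and Ahcyl1 (0.104), and the site calls within control of Gda (0.072) and Ak4 (0.192). Of values not called in the reported fit, 8 changed sign and passed the threshold, all under voom weights or without descending control replicate 3. They were Entpd1 (-0.359 and -0.32) and Ak5 (0.355, 0.364 and, with DESeq2, 0.377) for TGFβ in descending fibroblasts, and Adora2b (-0.508) and Enpp1 (0.255 and 0.27) for site within control. Leaving out 1 library at a time took these 4 from -0.32 to 0.391, -0.188 to 0.364, -0.508 to 0.58 and -0.148 to 0.27. Another 49 changed sign and stayed uncalled. Depth limits Adora1, at the floor in nearly all libraries, and Nt5e, with at most 63 counts.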
